A study of Mus musculus with 9 samples.

Results

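The 42 genes described here act in mitosis: they bring a cell into M phase, build the kinetochores and the spindle, check that chromosomes are attached, pull sister chromatids apart and divide the cytoplasm. They were taken by symbol from the 38195 distinct symbols of the deposited expression table. All 42 were present, and all passed the filter on low values that 14004 genes passed (at least 1 FPKM in at least 3 of 9 libraries). FPKM, sequenced fragments corrected for transcript length and library depth, is the unit of every level below.

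The tissue was E12.5 hypothalamus of outbred CD-1 mice. Coronal slices were microdissected into the ventricular zone (VZ), the medial mantle zone (mMZ) and the lateral mantle zone (lMZ), with 3 libraries each. No sample was treated or carried a stated mutation, although the title of the study names the centrosomal protein Cenpj. Whether the 3 libraries of a zone are separate embryos, litters or pools is not stated, so p-values measure only the spread between libraries, which may be technical.

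In the embryonic brain, progenitors divide in the ventricular zone along the ventricle, and their daughters leave it for the mantle, where neurons differentiate. Transcripts of mitosis genes build up in G2 and M phase and are scarce in cells that have left the cycle. Many are repressed in resting cells by the DREAM complex and induced in G2 by B-Myb and FoxM1, which reach their promoters through a short element called the cell cycle genes homology region (CHR). CCAAT boxes, bound by NF-Y, commonly stand upstream of it. These are bulk samples, in which fewer dividing cells and less RNA per cell cannot be told apart.

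The promoters of the members with the widest difference between zones contain the letters of both elements, and they are printed here to show what the genes share beside their function. Each window holds 300 bases, 250 before and 50 after the RefSeq start on GRCm38.p6, read 5′ to 3′ on the gene's strand. Capitals mark CHR letters (TTTGAA or TTTAAA, or TTCAAA where the first lies on the other strand) and CCAAT letters (CCAAT, or ATTGG on the other strand). For each functional group the member with the largest difference between ventricular and lateral mantle zone was taken where it had an entry. Bub3, the member whose level differed least between these zones, was added after its values were seen.
Ccnb1: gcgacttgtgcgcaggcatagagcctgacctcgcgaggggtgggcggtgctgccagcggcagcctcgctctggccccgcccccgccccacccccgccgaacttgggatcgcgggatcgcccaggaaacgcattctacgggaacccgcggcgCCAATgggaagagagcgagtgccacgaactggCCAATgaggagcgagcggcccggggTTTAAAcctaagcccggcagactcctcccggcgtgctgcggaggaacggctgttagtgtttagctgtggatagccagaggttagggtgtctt
Ube2c: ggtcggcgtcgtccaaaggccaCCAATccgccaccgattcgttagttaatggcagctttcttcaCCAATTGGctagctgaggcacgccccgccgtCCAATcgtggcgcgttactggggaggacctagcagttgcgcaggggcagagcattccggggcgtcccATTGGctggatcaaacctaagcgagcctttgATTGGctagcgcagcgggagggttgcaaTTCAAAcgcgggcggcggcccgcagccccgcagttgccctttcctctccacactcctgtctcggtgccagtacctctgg
Cenpa: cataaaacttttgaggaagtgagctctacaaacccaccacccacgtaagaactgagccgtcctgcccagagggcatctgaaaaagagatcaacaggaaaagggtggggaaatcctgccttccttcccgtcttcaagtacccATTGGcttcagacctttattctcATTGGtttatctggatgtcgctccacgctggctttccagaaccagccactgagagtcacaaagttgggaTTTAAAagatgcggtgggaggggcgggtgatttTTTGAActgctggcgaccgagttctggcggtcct
Cdca8: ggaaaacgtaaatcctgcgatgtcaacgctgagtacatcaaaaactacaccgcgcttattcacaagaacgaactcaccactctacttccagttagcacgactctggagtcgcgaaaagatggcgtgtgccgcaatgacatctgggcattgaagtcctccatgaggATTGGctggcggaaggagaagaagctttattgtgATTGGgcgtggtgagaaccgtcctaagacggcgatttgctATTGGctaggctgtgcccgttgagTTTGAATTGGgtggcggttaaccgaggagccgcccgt
Top2a: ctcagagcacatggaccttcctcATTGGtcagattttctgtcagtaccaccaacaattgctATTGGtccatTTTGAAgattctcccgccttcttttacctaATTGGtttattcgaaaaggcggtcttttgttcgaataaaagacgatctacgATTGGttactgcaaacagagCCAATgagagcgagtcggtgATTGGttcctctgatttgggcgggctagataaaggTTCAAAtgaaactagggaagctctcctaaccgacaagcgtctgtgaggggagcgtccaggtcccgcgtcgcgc
Bub3: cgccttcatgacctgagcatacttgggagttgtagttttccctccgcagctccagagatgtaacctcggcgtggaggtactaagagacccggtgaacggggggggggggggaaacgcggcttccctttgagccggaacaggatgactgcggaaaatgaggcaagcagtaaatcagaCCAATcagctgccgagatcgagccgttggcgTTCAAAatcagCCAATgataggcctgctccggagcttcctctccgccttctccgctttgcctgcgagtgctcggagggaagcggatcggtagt

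The windows lie at chr13:100786437-100786736 on the minus strand for Ccnb1, chr2:164769679-164769978 on the plus strand for Ube2c, chr5:30666636-30666935 on the plus strand for Cenpa, chr4:124936868-124937167 on the minus strand for Cdca8, chr11:99024140-99024439 on the minus strand for Top2a and chr7:131560120-131560419 on the plus strand for Bub3. In Ccnb1 the CHR letters begin at base -42 from the start, with CCAAT boxes at -99 and -67. Ube2c has them at -29, with 6 CCAAT boxes, of which the pair at -186 and -183 overlap. Cenpa has CHR letters at -17 and at 17, and Cdca8 has them at 14, overlapping the CCAAT box at 19. Top2a has CHR letters at -179 and -23 and 6 CCAAT boxes. Bub3 holds the same letters as the others, with CHR letters at -43 and CCAAT boxes at -74 and -32.

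A RefSeq promoter was matched for 35 members, leaving Spc24, Tpx2, Smc4, Ccna2, Aurkb, Cdc25c and Incenp without an entry. CHR letters on either strand stood in 27 of the 35 windows (77.1%), against 18.1% of the windows of 9482 tested genes and 27.8% of all 27025 windows. CCAAT letters stood in 27 windows as well (77.1%), against 39.0% and 37.9%. Both stood together in 24 windows (68.6%), against 7.57% of tested genes and 10.9% of all windows. CHR letters beginning between -60 and 40 from the start, a window chosen after the positions were seen, occurred in 23 members (65.7%), against 4.84% of tested genes and 8.78% of all windows. The 27 members with CHR letters kept a median of 6.19% of their ventricular level in the lateral mantle zone (1.8% to 57.9%), and the 8 members without them kept 5.33% (3.83% to 16.1%). These medians were 9.42% and 9.49% without ventricular replicate 3. A match to these letters describes the window and does not show that a factor binds there.

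Depth was uneven. The values imply 4378434 to 9007421 fragments in 7 libraries, 262892 in ventricular replicate 3 and 545144 in medial replicate 3. In those shallow libraries 1 fragment on a 2 kb transcript was worth 1.9 and 0.917 FPKM, against 0.0555 to 0.114 FPKM elsewhere, so low values there move in coarse steps. Both libraries also stood apart in the mitosis genes, as described below, and summed levels, counts and the shares described by gene are given with and without them where leaving them out moves them by over 1.5 times or changes an order. Neural progenitor markers were higher in the ventricular than in the lateral zone in 10 of 11 genes, against 10.7% of all genes. The exception was Pax6. Of 11 neuron markers 10 were lower, against 8.93% of all genes.

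Summed over the 42 genes, the level was 1100, 775 and 2320 FPKM in ventricular zone replicates 1, 2 and 3, 563, 736 and 1180 FPKM in the medial mantle zone, and 129, 101 and 160 FPKM in the lateral mantle zone. The mean was 1400 ± 813 FPKM in the ventricular, 828 ± 321 FPKM in the medial and 130 ± 29.6 FPKM in the lateral zone (SD, n = 3 each). Lateral libraries lay below all others, while the ventricular and medial mantle libraries overlapped. Relative to the ventricular mean, the medial libraries held 40.3%, 52.7% and 84.8% and the lateral libraries 9.23%, 7.25% and 11.5%. Without ventricular zone replicate 3 the mean shares became 88.3% medially and 13.9% laterally, in place of 59.3% and 9.32%, and without both shallow libraries they were 69.3% and 13.9%. All members were above 0 in all 9 libraries, and 41 of 42 had zone means in the order ventricular, medial, lateral, Bub3 being the exception. Without both shallow libraries Bub3 and Cenpk had a medial mean above the ventricular one, and without ventricular replicate 3 alone 11 genes did.

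**Figure D1:**
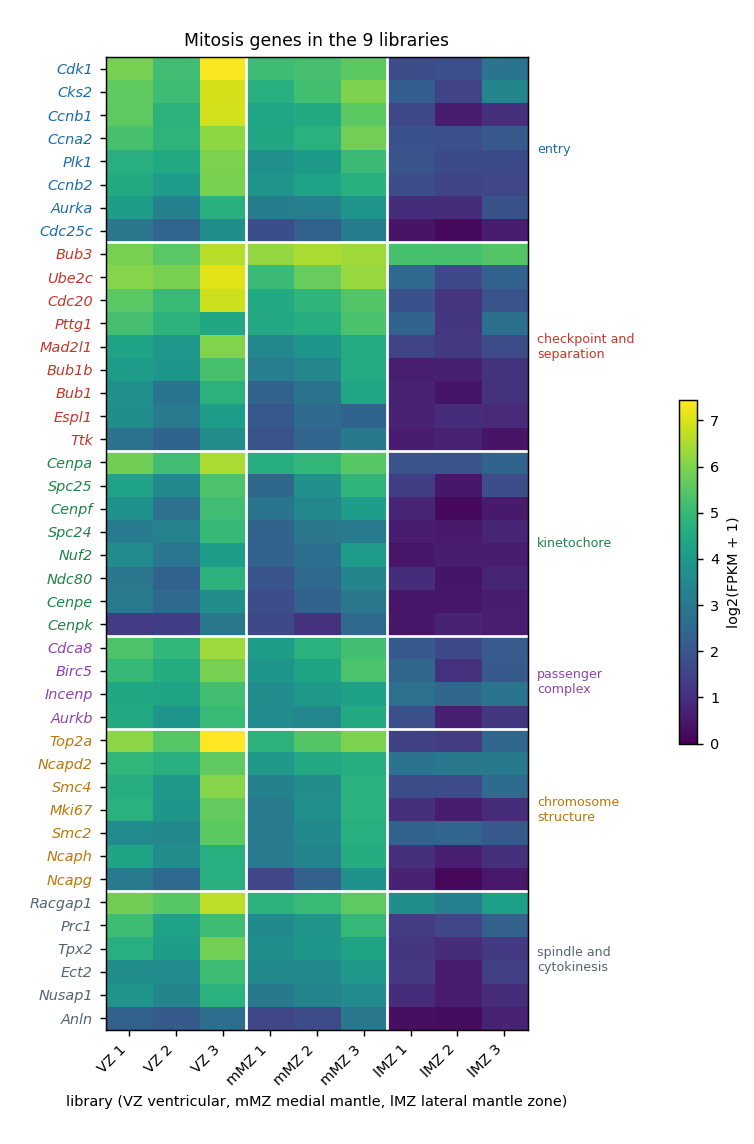
Level of each of the 42 genes (rows, grouped by function) in each of the 9 libraries (columns), as log2(FPKM + 1) on the colour scale. For every gene the lateral columns are darker than the ventricular and medial ones, with the highest lateral levels in Bub3 (37.5 to 42.3 FPKM) and Racgap1 (8.19 to 17.5 FPKM), and replicate 3 is the brightest ventricular library for 41 genes.

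Between the ventricular and lateral mantle zones, 40 of the 42 genes were higher in the ventricular zone and none was lower (limma on log2(FPKM + 1), Benjamini-Hochberg over all 14004 genes). Across all genes 10.7% were higher and 8.93% lower by the same rule. The median difference of the members was 3.16 on the log2 scale, against 0.05 for all genes. All ventricular libraries lay above all lateral ones for each of the 42, against 25.2% of all genes. For a further 2789 of the 14004 genes they lay wholly below. Bub3 and Cenpk did not pass. With both shallow libraries left out the count was again 40, and over all alternatives it was 36 to 42.

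Between the medial and lateral mantle zones, 34 of 42 genes were higher medially and none was lower, against 3.58% and 0.543% of all genes. All medial libraries lay above all lateral ones for each of the 42, against 25.7% of all genes. For a further 2066 of the 14004 genes they lay wholly below. The median difference was 2.51, against 0.10. Cenpk, Ndc80, Spc25, Smc2, Smc4, Ncapg, Anln and Racgap1 did not pass. This count depended on single libraries: it was 19 without medial replicate 2, 20 without medial replicate 3, and 19, 14 and 22 without lateral replicates 1, 2 and 3. The count over all genes, in either direction, fell as well, from 577 to 222, 294, 240, 207 and 295 in the same fits. The member count was 22 with a pseudocount of 5 and 41 without ventricular replicate 3 or without both shallow libraries. Over all genes these fits gave 531, 1760 and 1666. For 14 of the 34 genes the call held in all 20 alternatives, among them Ccnb1, Ccna2, Cdc20, Ube2c, Top2a, Tpx2, Cenpa, Cdca8, Aurkb and Pttg1.

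Between the ventricular and medial mantle zones no member passed, nor did any of the 14004 genes (0.0%). 6 members had an unadjusted limma p under 0.05 (Espl1, Ncapd2, Racgap1, Incenp, Tpx2 and Cenpa), against 11.9% of all genes. 41 of 42 differences were positive, against 6326 of the 14004 genes, with a median of 0.68 against -0.05 for all genes. That median was 0.29 without ventricular replicate 3 and 1.03 without medial replicate 3. All ventricular libraries lay above all medial ones for Espl1, Spc24, Incenp and Ncapd2, 4 of 42 against 5.36% of all genes. They lay wholly below for 0 members, against 1302 of the 14004 genes. With libraries weighted by their estimated noise (array weights), 22 members passed, 21 higher and Bub3 lower in the ventricular zone, along with 2761 of all genes. Without ventricular replicate 2, 1 member (Espl1) and 571 of all genes passed.

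**Figure D2:**
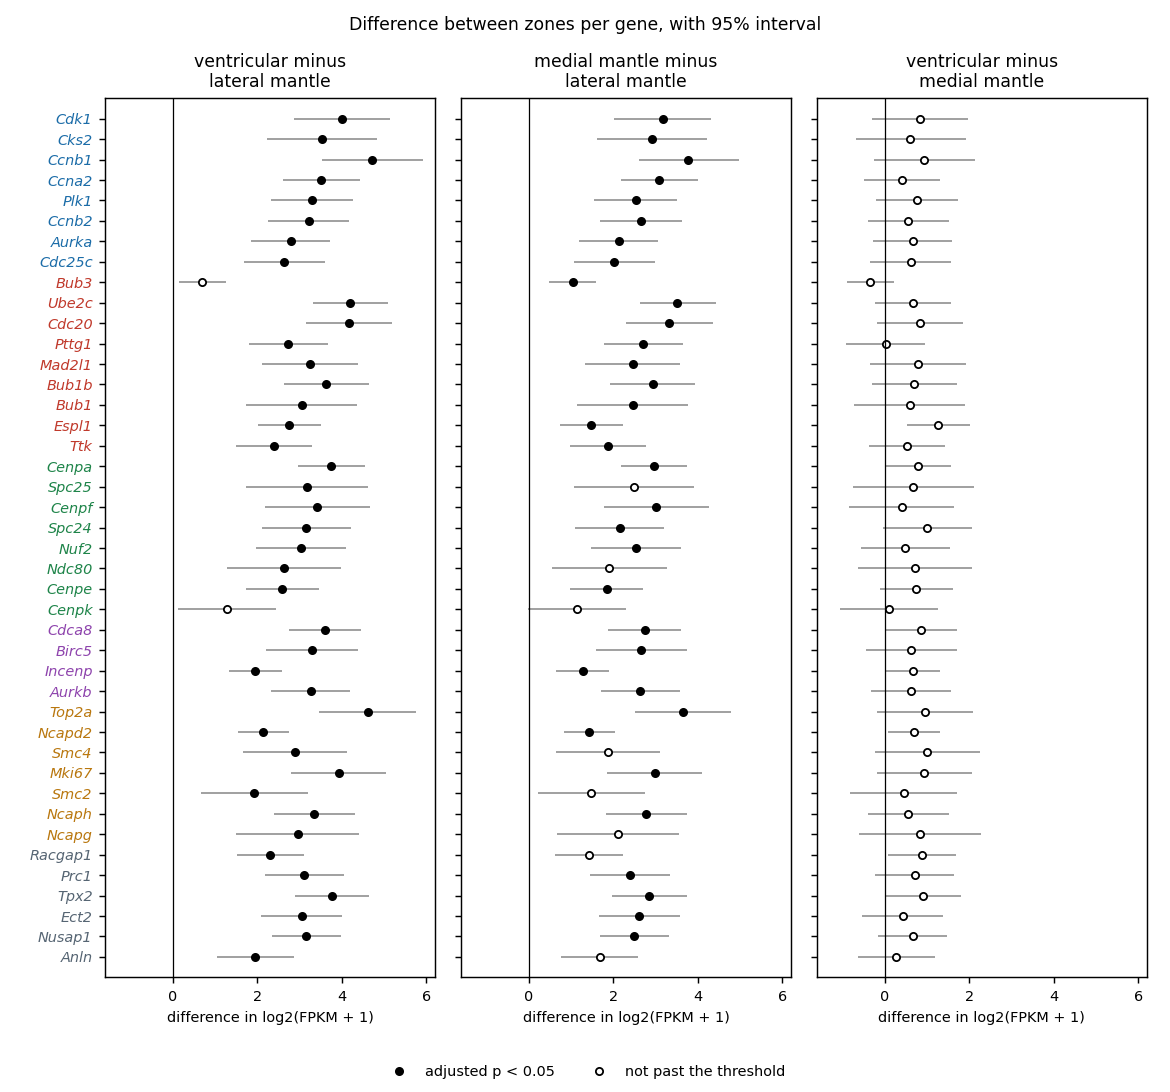
Difference of each gene between pairs of zones on the log2(FPKM + 1) scale, with the 95% interval of the limma fit to 9 libraries. Filled points passed an adjusted p of 0.05: 40 genes for ventricular minus lateral, 34 for medial minus lateral and 0 for ventricular minus medial mantle.

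The 8 genes of mitotic entry all rose in the ventricular zone over the lateral mantle zone, with a median difference of 3.40, and all 8 were higher in the medial than in the lateral mantle zone (median 2.78). Ccnb1, cyclin B1, is the activating partner of Cdk1 at the G2/M border. It had 47.3, 27.0 and 121 FPKM in ventricular replicates 1, 2 and 3, 20.3, 22.3 and 46.2 FPKM in the medial mantle zone and 2.06, 0.468 and 0.994 FPKM in the lateral mantle zone. The medial levels fell within or below the ventricular range, and the lateral ones lay far below both. Its lateral share of 1.8% was the lowest of the 42 genes, as it was without ventricular replicate 3 (3.16%). Its difference from ventricular to lateral zone was the largest (4.72 ± 0.53, SE, limma adjusted p = 0.000856). From medial to lateral it was 3.78 ± 0.53 (adjusted p = 0.00543).

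Cdk1, the mitotic kinase itself, had the highest mean over all 9 libraries in this group, though Cks2 had the higher mean in both mantle zones. Its values were 58.6, 34.8 and 165 FPKM in the ventricular zone, 33.9, 36.6 and 46.6 FPKM medially and 2.33, 2.55 and 6.32 FPKM laterally. Ventricular and medial libraries overlapped, and ventricular replicate 3 far exceeded every other library. It was higher by 4.0 ± 0.51 in the ventricular than in the lateral zone (adjusted p = 0.00148) and by 3.17 ± 0.51 in the medial than in the lateral zone (adjusted p = 0.00931). The call between medial and lateral zone was lost without lateral replicate 2, where the difference was 3.01.
Cdc25c, the phosphatase that removes inhibitory phosphates from Cdk1, was the lowest of the group, at 6.65, 4.42 and 12.1 FPKM in the ventricular, 2.44, 3.92 and 7.83 FPKM in the medial and 0.311, 0.151 and 0.474 FPKM in the lateral mantle zone. The lateral values rest on about 2.7 to 5.5 implied fragments per library. Its difference was 2.64 ± 0.43 from ventricular to lateral zone (adjusted p = 0.00438). The other members, cyclins Ccna2 and Ccnb2, kinases Plk1 and Aurka, and the Cdk-binding subunit Cks2, kept 55.8% to 75.7% of their ventricular mean medially and 6.16% to 8.88% laterally (77.0% to 106% and 8.59% to 12.4% without ventricular replicate 3).

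Among the 9 genes of the spindle checkpoint and of chromatid separation, 8 were higher in the ventricular and 9 in the medial than in the lateral mantle zone. Ube2c, the ubiquitin-conjugating enzyme of the anaphase-promoting complex, had 66.8, 59.6 and 135 FPKM in the ventricular zone, 32.5, 50.9 and 77.8 FPKM medially and 4.86, 2.1 and 3.96 FPKM laterally. Medial replicate 3 lay above ventricular replicates 1 and 2, and all lateral libraries lay below 5 FPKM. The gene was higher by 4.20 ± 0.40 in the ventricular than in the lateral zone (adjusted p = 0.000476). Medially it was higher than laterally by 3.52 ± 0.40 (adjusted p = 0.00255).

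Securin (Pttg1) and separase (Espl1) form a pair: securin holds separase inactive until anaphase, when separase cleaves cohesin. With all libraries they stood near opposite ends of the members' medial shares. Pttg1 was at 37.0, 26.9 and 20.4 FPKM in the ventricular zone, 21.2, 23.8 and 38.7 FPKM medially and 4.20, 1.24 and 5.73 FPKM laterally. The medial mean was 99.3% of the ventricular one, and the difference between these zones was 0.02 ± 0.42 (95% interval -0.92 to 0.95, adjusted p = 0.991). It is the single member for which ventricular replicate 3 was the lowest library of its zone, on about 9.0 implied fragments. Without both shallow libraries the ventricular and medial values of Pttg1 did not overlap, the medial share was 70.4% and the difference 0.47, which did not pass. Against the lateral zone it was higher by 2.73 ± 0.42 in the ventricular (adjusted p = 0.00336) and by 2.71 ± 0.42 in the medial zone (adjusted p = 0.00789).
Espl1 was at 12.1, 7.15 and 16.6 FPKM in the ventricular zone, 3.14, 5.07 and 4.31 FPKM medially and 0.683, 0.928 and 0.874 FPKM laterally. All 3 ventricular libraries exceeded all medial ones, and its medial share of 34.9% was the lowest of the members, as it was without both shallow libraries (42.6%). The difference from ventricular to medial zone, 1.27 ± 0.33, was the largest of the 42 and did not pass (adjusted p = 0.344). Against the lateral zone Espl1 was higher by 2.76 ± 0.33 in the ventricular (adjusted p = 0.00116) and by 1.48 ± 0.33 in the medial zone (adjusted p = 0.0374). The medial call was lost in 7 of the 9 fits that left out 1 library, all but those without ventricular replicate 2 or 3, with differences of 1.36 to 1.64.

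Bub3, which carries Bub1 and BubR1 to unattached kinetochores, behaved unlike the other members. It was at 59.6, 45.2 and 98.7 FPKM in the ventricular zone, 74.6, 89.6 and 81.8 FPKM in the medial and 37.5, 38.0 and 42.3 FPKM in the lateral mantle zone. All medial libraries exceeded ventricular replicates 1 and 2, and the lateral libraries lay just below ventricular replicate 2. Its medial share was 121% and its lateral share 57.9%, both the highest of the 42 genes. The medial share was 157% without ventricular replicate 3, below the 180% of Cenpk. The ventricular zone exceeded the lateral by 0.70 ± 0.25 (adjusted p = 0.075), a difference that passed without ventricular replicate 2 (0.95) and with array weights (0.56). From medial to lateral zone the difference was 1.04 ± 0.25 (adjusted p = 0.049), and this call was lost in 12 of 20 alternatives, including 7 of the 9 that left out 1 library (0.98 to 1.11). From ventricular to medial zone it was -0.34 ± 0.25 (adjusted p = 0.574), the single negative difference among the members. Its binding partners Bub1 and Bub1b, by contrast, had lateral means of 0.713 and 0.755 FPKM, 4.74% and 3.33% of the ventricular means (7.64% and 5.02% without ventricular replicate 3).
In the same group, Cdc20, the activator of the anaphase-promoting complex, differed by 4.17 from ventricular to lateral zone, the checkpoint protein Mad2l1 by 3.24 and the checkpoint kinase Ttk by 2.40. All of these passed.

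**Figure D3:**
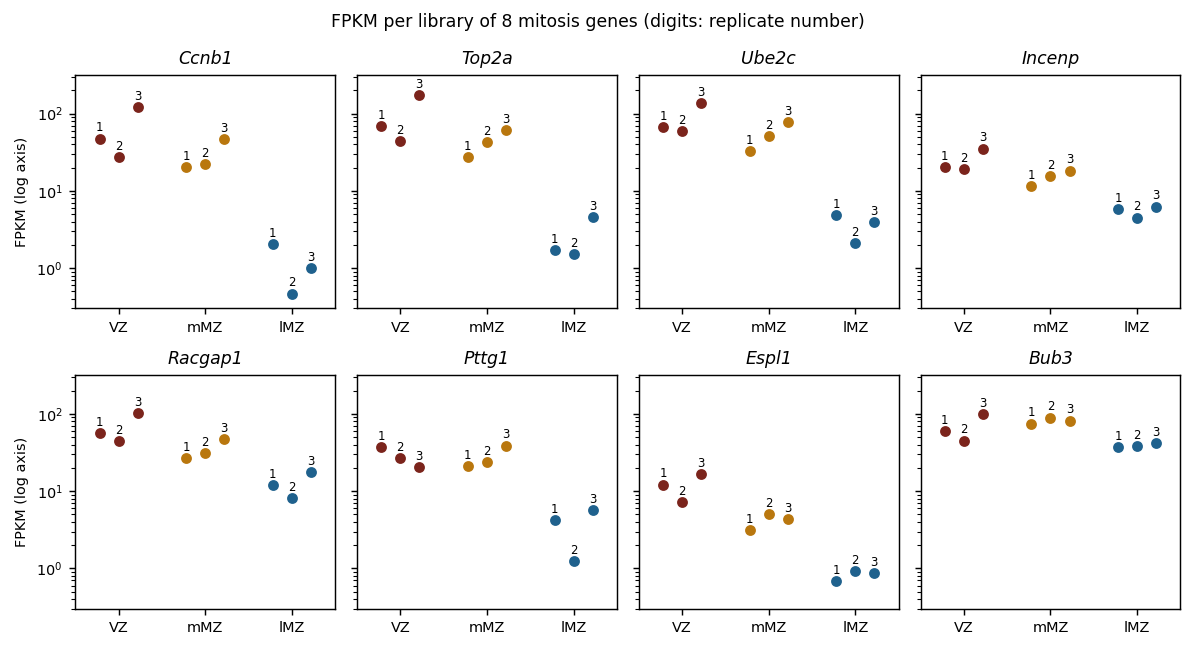
FPKM of 8 genes in each library, on a log axis, for the ventricular (VZ), medial mantle (mMZ) and lateral mantle (lMZ) zones, with the replicate number above each point. Ccnb1 drops to 0.468 to 2.06 FPKM in the lateral zone, Racgap1 stays at 8.19 to 17.5 FPKM and Bub3 at 37.5 to 42.3 FPKM, while the ventricular and medial points of Pttg1 overlap and those of Espl1 do not.

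Of the 8 kinetochore genes 7 were higher in the ventricular than in the lateral zone (median 3.1), and 5 were higher in the medial than in the lateral zone (median 2.32). Cenpa, the histone variant that marks the centromere, had 55.5, 34.6 and 88.4 FPKM in the ventricular, 23.8, 29.5 and 44.7 FPKM in the medial and 2.75, 2.72 and 4.24 FPKM in the lateral mantle zone. Only medial replicate 3 exceeded a ventricular library. Its difference was 3.75 ± 0.35 from ventricular to lateral (adjusted p = 0.000456) and 2.96 ± 0.35 from medial to lateral zone (adjusted p = 0.00284).

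Cenpf, a large protein of the outer kinetochore, kept 62.9% of its ventricular level medially and 2.40% laterally, or 119% and 4.52% without ventricular replicate 3. Its values were 12.8, 6.02 and 34.4 FPKM in the ventricular, 6.40, 10 and 17.1 FPKM in the medial and 0.703, 0.134 and 0.438 FPKM in the lateral zone. The ventricular and medial libraries overlapped. The difference from ventricular to lateral was 3.42 ± 0.55 (adjusted p = 0.00434).
Nuf2 and Spc24 are parts of the Ndc80 complex, which grips microtubules. Nuf2 had 11.1, 6.62 and 16.7 FPKM in the ventricular, 4.10, 5.62 and 16.4 FPKM in the medial and 0.370, 0.477 and 0.469 FPKM in the lateral mantle zone. Spc24 had 7.59, 8.82 and 30.7 FPKM in the ventricular, 4.19, 6.65 and 7.33 FPKM in the medial and 0.483, 0.453 and 0.742 FPKM in the lateral zone. Medial replicate 3 nearly matched ventricular replicate 3 for Nuf2, whereas for Spc24 it lay near the other medial libraries. The medial share was 76.1% for Nuf2 and 38.6% for Spc24, and the order turned without both shallow libraries, at 55.0% for Nuf2 and 66.1% for Spc24. Both were higher in the ventricular than in the lateral zone, by 3.03 ± 0.47 for Nuf2 (adjusted p = 0.00366) and by 3.16 ± 0.47 for Spc24 (adjusted p = 0.003). Ndc80 itself and Spc25 were higher in the ventricular than in the lateral zone by 2.63 and 3.17. The Ndc80 call was lost when any lateral library was left out (2.47 to 2.75).

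Cenpk, of the inner kinetochore, had the lowest level of the 42 genes, at 1.45, 1.58 and 6.85 FPKM in the ventricular, 2.14, 1.09 and 4.96 FPKM in the medial and 0.396, 0.639 and 0.555 FPKM in the lateral mantle zone. Replicate 3 stood above the others in both inner zones, where it rests on about 3.7 and 5.6 implied fragments. The differences of 1.27 ± 0.52 from ventricular to lateral (adjusted p = 0.113) and 1.15 ± 0.52 from medial to lateral zone (adjusted p = 0.246) did not pass. Without ventricular replicate 3 the difference from ventricular to lateral was 0.72, and with array weights both passed (0.75 and 0.80). Cenpe, a kinetochore motor, was higher by 2.59 in the ventricular than in the lateral zone and passed.

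All 4 genes of the chromosomal passenger complex, which corrects faulty attachments and later sits at the spindle midzone, were higher in the ventricular and in the medial than in the lateral mantle zone. Cdca8 (borealin) had 40.9, 29.2 and 81.1 FPKM in the ventricular, 17.0, 25.9 and 35.2 FPKM in the medial and 3.33, 2.1 and 3.36 FPKM in the lateral zone. Its lateral libraries lay below 4 FPKM, and medial replicate 3 exceeded ventricular replicate 2. The gene was higher by 3.60 ± 0.38 in the ventricular than in the lateral zone (adjusted p = 0.000737). Birc5 (survivin) and Aurkb, the kinase of the complex, were higher by 3.29 and 3.26.
Incenp, the scaffold that joins them, was at 20.5, 19.1 and 35.2 FPKM in the ventricular, 11.4, 15.4 and 18.2 FPKM in the medial and 5.79, 4.50 and 6.25 FPKM in the lateral mantle zone. The 3 zones did not overlap at all, and 22.1% of the ventricular level was found laterally, against 5.82% to 7.80% for its partners. It was higher by 1.95 ± 0.28 in the ventricular than in the lateral zone (adjusted p = 0.00253). From medial to lateral the difference was 1.28 ± 0.28 (adjusted p = 0.0354), a call lost in 7 of the 9 fits that left out 1 library (1.14 to 1.45).

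The 7 genes of chromosome structure were all higher in the ventricular than in the lateral zone, and 4 of them in the medial than in the lateral zone. Top2a, the topoisomerase that untangles sister chromatids, was at 69.4, 43.9 and 172 FPKM in the ventricular, 27.1, 42.3 and 61.1 FPKM in the medial and 1.70, 1.52 and 4.53 FPKM in the lateral mantle zone. Medial replicate 3 again exceeded ventricular replicate 2. Its difference from ventricular to lateral was 4.61 ± 0.51 (adjusted p = 0.000836), and from medial to lateral 3.66 ± 0.51 (adjusted p = 0.00527).
Mki67, which encodes the proliferation antigen Ki-67 that coats mitotic chromosomes, was at 25.7, 14.3 and 49.5 FPKM in the ventricular, 7.15, 12.2 and 26.0 FPKM in the medial and 0.988, 0.511 and 0.950 FPKM in the lateral zone. It stayed under 1 FPKM in all lateral libraries. The difference from ventricular to lateral was 3.93 ± 0.50 (adjusted p = 0.00149).

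Condensin I compacts chromosomes, and its lateral shares are given by subunit. Its regulatory subunit Ncapd2 was at 29.6, 24.5 and 48.5 FPKM in the ventricular, 15.3, 21.2 and 24.0 FPKM in the medial and 6.18, 6.89 and 7.07 FPKM in the lateral zone, with no overlap between zones. Ncapg, another subunit, was at 7.27, 4.80 and 24.5 FPKM in the ventricular, 2.01, 3.96 and 13.2 FPKM in the medial and 0.647, 0.127 and 0.426 FPKM in the lateral zone. The lateral share was 19.6% for Ncapd2, 17.4% for Smc2, 9.17% for Smc4, 4.59% for Ncaph and 3.28% for Ncapg. Without ventricular replicate 3 the order changed, with 36.6% for Smc2, 24.8% for Ncapd2, 16.7% for Smc4, 6.62% for Ncapg and 5.48% for Ncaph. A test of these gene-to-gene differences was not run.
Smc2, an ATPase shared with condensin II, had 11, 10.3 and 46.1 FPKM in the ventricular, 7.43, 10.7 and 24.4 FPKM in the medial and 4.15, 4.34 and 3.21 FPKM in the lateral zone. Replicate 3 stood far above the other libraries of both inner zones. Its difference from ventricular to lateral, 1.93 ± 0.57, passed narrowly (adjusted p = 0.0407). It fell to 1.26 without ventricular replicate 3, and the call was lost in 10 of 20 alternatives, including those without ventricular replicate 1, medial replicate 2 or any lateral library (1.82 to 2.24). Smc4, its partner ATPase, had 23.6, 15.1 and 67.4 FPKM in the ventricular, 8.65, 11.8 and 25.8 FPKM in the medial and 2.41, 2.27 and 5.05 FPKM in the lateral zone. Its medial share was 43.5%, or 79.6% without ventricular replicate 3, and the ventricular zone exceeded the lateral by 2.88 ± 0.55 (adjusted p = 0.00868). Ncapd2 and Ncapg were higher in the ventricular than in the lateral zone by 2.14 ± 0.27 (adjusted p = 0.00148) and 2.95 ± 0.65 (adjusted p = 0.015). The Ncapg call was lost without lateral replicate 2 (2.80).

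All 6 spindle and cytokinesis genes were higher in the ventricular than in the lateral zone, and 4 in the medial than in the lateral zone. Tpx2, which activates Aurora A and nucleates microtubules around chromosomes, had 24.6, 17.1 and 56.4 FPKM in the ventricular, 12.0, 14.2 and 19.2 FPKM in the medial and 1.28, 0.938 and 1.39 FPKM in the lateral mantle zone. Medial replicate 3 was the single medial library above a ventricular one. The difference was 3.77 ± 0.39 from ventricular to lateral (adjusted p = 0.000718) and 2.85 ± 0.39 from medial to lateral zone (adjusted p = 0.00523). Nusap1 and Prc1, which bundle spindle microtubules, and Ect2, the exchange factor that activates RhoA at the cleavage furrow, were higher in the ventricular than in the lateral zone by 3.16, 3.11 and 3.05.

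Racgap1, the centralspindlin subunit that binds Ect2, was at 55.9, 44.8 and 102 FPKM in the ventricular, 26.9, 31.1 and 47.4 FPKM in the medial and 12.0, 8.19 and 17.5 FPKM in the lateral mantle zone. After Bub3 it had the highest lateral level of the members. The ventricular zone exceeded the lateral by 2.31 ± 0.36 (adjusted p = 0.00355), while the difference of 1.43 ± 0.36 between medial and lateral zone did not pass (adjusted p = 0.0572), though it did without ventricular replicate 2 or 3 (1.43 in both).
Anln, anillin of the contractile ring, was at 3.96, 3.33 and 5.45 FPKM in the ventricular, 1.97, 2.33 and 6.95 FPKM in the medial and 0.236, 0.178 and 0.637 FPKM in the lateral zone. Medial replicate 3 was the highest of all 9 libraries, on about 17 implied fragments. It was higher by 1.95 ± 0.41 in the ventricular than in the lateral zone (adjusted p = 0.0122), a call lost without lateral replicate 1 (1.90) or 2 (1.86).

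The mantle zones kept different amounts of the ventricular level. In the medial zone 40 of 42 genes kept over 40% of their ventricular mean, and the median share was 59.3%, against 103% over all tested genes. The median was 85.4% without ventricular replicate 3 and 62.7% without both shallow libraries, against 107% and 104% over all tested genes, and all 42 genes then kept over 40%. With all libraries the 5 highest medial shares were those of Bub3, Pttg1 (99.3%), Anln (88.4%), Cenpk (82.9%) and Nuf2 (76.1%), and the 5 lowest those of Espl1, Spc24, Smc4 (43.5%), Cdk1 (45.3%) and Ccnb1 (45.4%). This order rests on the shallow libraries: without both, 2 of the 5 highest (Bub3 and Cenpk) and 1 of the 5 lowest (Espl1) were the same genes. Without ventricular replicate 3 alone the medial share was 83.6% for Cdk1, 79.6% for Ccnb1 and 73.8% for Spc24. Median shares per functional group lay between 52.5% for chromosome structure and 62.0% for the passenger complex, and without both shallow libraries between 52.9% for chromosome structure and 67.5% for entry. Without ventricular replicate 3 alone they lay between 76.3% for spindle and cytokinesis and 101% for the kinetochore.
In the lateral zone 35 of 42 genes kept under 10%, with a median of 5.99% against 93.0% over all tested genes. Leaving out ventricular replicate 3, 25 of 42 did, with a median of 8.59% against 96.5%. Group medians lay between 4.59% for chromosome structure and 7.22% for spindle and cytokinesis. Without ventricular replicate 3 they lay between 6.62% for chromosome structure and 9.68% for the passenger complex. 13 genes were under 1 FPKM in all lateral libraries, and 20 reached 1 FPKM in all 3. The highest lateral shares after Bub3 were 22.1% for Incenp, 19.6% for Ncapd2, 18.6% for Racgap1 and 17.4% for Smc2. The lowest after Ccnb1 were 2.40% for Cenpf, 2.71% for Top2a (4.56% without ventricular replicate 3), 2.74% for Mki67 and 3.28% for Ncapg. Without ventricular replicate 3, 4 of the 5 highest and 4 of the 5 lowest were the same genes, with Cenpk (35%) in place of Ncapd2 and Nuf2 (4.96%) in place of Ncapg. Bub3 by itself made up 26.3% to 37.5% of the lateral sum. Without it the lateral libraries held 6.88%, 4.76% and 8.89% of the ventricular sum.

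**Figure D4:**
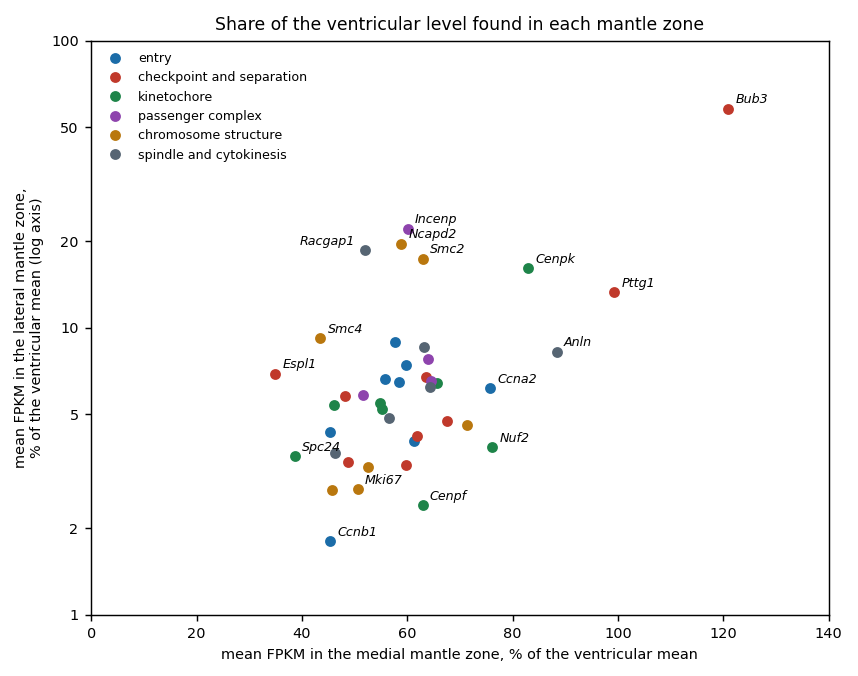
Mean FPKM of each gene in the medial (x axis) and lateral mantle zone (y axis, log scale) as a percentage of its mean in the ventricular zone, over all 9 libraries and coloured by function. 40 genes lie over 40% medially and 35 under 10% laterally, with Bub3 at 121% and 57.9%, Pttg1 at 99.3% medially and Incenp, Ncapd2, Racgap1 and Smc2 between 17.4% and 22.1% laterally.

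Progenitor markers were compared in the same way. The 11 neural progenitor markers, such as Sox2, Vim and Notch1, had a median share of 57.5% medially and 4.82% laterally, or 66.7% and 5.37% without both shallow libraries. The progenitor marker sum was 1800, 984 and 2110 FPKM in the ventricular, 1140, 949 and 1070 FPKM in the medial and 128, 90.8 and 125 FPKM in the lateral mantle zone. Dividing the mitosis sum by it gave 0.612, 0.788 and 1.10 in ventricular, 0.495, 0.776 and 1.11 in medial and 1.01, 1.11 and 1.28 in lateral libraries. The ratio thus differed more between the libraries of the ventricular and of the medial zone than between their means. In the lateral zone it depended on both lists. Without Pax6 the lateral ratio was 1.58, 1.80 and 1.34. Bub3 alone made up 26.3% to 37.5% of the lateral mitosis sum, so leaving Bub3 out would lower the ratio. A ratio without Bub3 was not taken.

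Markers of some other cells of the tissue, though not of all, differed between the zones as well. Erythroid markers, mainly globins, summed to 2350, 2290 and 2660 FPKM in the ventricular, 3010, 2650 and 1610 FPKM in the medial and 692, 319 and 562 FPKM in the lateral mantle zone. Of 7 tested erythroid markers 6 were higher in the ventricular and 6 in the medial than in the lateral zone, against 10.7% and 3.58% of all genes. Neuron markers ran the other way, at 733, 1640 and 561 FPKM in the ventricular, 1850, 1580 and 1640 FPKM in the medial and 2680, 2520 and 2270 FPKM in the lateral zone. Endothelial markers summed to 5.99 to 46.0 FPKM in the ventricular, 22.2 to 58.8 FPKM in the medial and 14.1 to 42.9 FPKM in the lateral zone. Microglia and macrophage markers summed to 12.2 to 23.5 FPKM in the ventricular, 12.6 to 27.2 FPKM in the medial and 35.9 to 51.2 FPKM in the lateral zone. None of the 8 endothelial markers passed between ventricular and lateral zone (limma, 0 at an unadjusted p under 0.05). Of 8 microglial markers 2 were lower in the ventricular zone, against 8.93% of all genes. The part of erythroid and other cells in the mitosis gene differences was not tested.

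**Figure D5:**
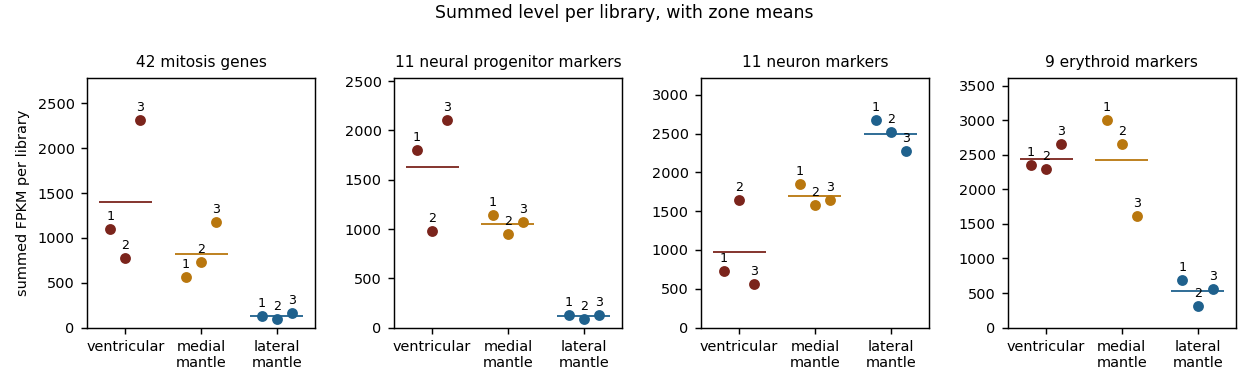
Summed FPKM per library of the 42 mitosis genes and of neural progenitor, neuron and erythroid markers, by zone, with replicate numbers at the points and a line at each zone mean. The mitosis sum and the progenitor sum are lowest in the lateral zone, and ventricular replicate 3 has the highest mitosis sum (2320 FPKM), while the erythroid sum is lowest in the lateral zone and the neuron sum highest there.

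Taken library by library, replicate 3 led both inner zones. Ventricular replicate 3 was the highest ventricular library for 41 of 42 members and lay a median of 1.24 above the mean of the other ventricular libraries on the log2 scale, against 0.03 for all tested genes. Medial replicate 3 was the highest medial library for 40 members, against 45.2% of all tested genes. Its median over the members was 0.97 above the others, against 0.03 for all genes. These are the 2 shallow libraries, and the part of depth in this excess was not tested. At the other end, ventricular replicate 2 was lowest for 39 members, medial replicate 1 for 39 and lateral replicate 2 for 31. Of all tested genes these libraries were lowest in their zone for 28.4%, 23.9% and 44.9%. Ventricular replicate 2 also had the lowest progenitor sum (984 FPKM) and the highest neuron sum (1640 FPKM) of its zone. Both lay within the range of the medial libraries (949 to 1140 and 1580 to 1850 FPKM). Ventricular replicate 3 had the highest progenitor sum (2110 FPKM) and the lowest neuron sum (561 FPKM) of its zone. The part of cell composition, or of tissue shared between dissected zones, in the mitosis gene levels was not tested. Medial replicate 3 exceeded ventricular replicate 1 in 26 members and ventricular replicate 2 in 38, whereas medial replicate 1 exceeded them in 2 and 3 members and medial replicate 2 in 1 and 9. No lateral library exceeded any ventricular or medial library in any member.

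The medial mantle zone was also set against the mean of both flanking zones on the log2(FPKM + 1) scale. No member passed the threshold (limma), against 0.0428% of all genes. All 42 differences were positive on this scale, against 8832 of the 14004 genes, with a median of 0.93 against 0.10 for all genes. An average on this scale weighs low values more than one in FPKM. A positive difference therefore does not place the medial FPKM above the mean of the flanking FPKM. By limma, 24 members had an unadjusted p under 0.05, against 7.80% of all genes. Ube2c at 1.43 ± 0.34 (adjusted p = 0.306) was the largest and Espl1 at 0.11 ± 0.29 (adjusted p = 0.939) the smallest. With array weights 17 members passed, and without ventricular replicate 3 Bub3 did.

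Beyond the 42 genes, the same pathways were followed in longer lists. Of 94 further genes taken from lists of the same pathways, 55 were higher in the ventricular zone than laterally and 1 was lower, against 10.7% and 8.93% of all genes, with a median difference of 1.31. From medial to lateral zone 20 were higher and none lower, against 3.58% and 0.543% of all genes. Between ventricular and medial zone none passed (limma), and 15 had an unadjusted p under 0.05, against 11.9% of all genes. Spindle and cytokinesis partners moved most, with 16 of 19 higher in the ventricular and 12 of 19 higher in the medial than in the lateral zone. Tacc3, which stabilises spindle microtubules, was at 40.8, 23.2 and 54.3 FPKM in the ventricular, 15.7, 21.9 and 23.4 FPKM in the medial and 3.67, 3.1 and 5.81 FPKM in the lateral zone (ventricular minus lateral 2.91 ± 0.33, adjusted p = 0.000875). The kinesin Kif22 differed by 3.32 ± 0.37 (adjusted p = 0.000848), while Rhoa (0.50 ± 0.17, adjusted p = 0.0659) and the microtubule polymerase Ckap5 (0.53 ± 0.28, adjusted p = 0.204) did not pass.

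Regulators of entry were higher in the ventricular than in the lateral zone in 10 of 14 genes. Foxm1, the transcription factor that induces G2/M genes, was at 36.2, 21.8 and 61.3 FPKM in the ventricular, 12.1, 18.7 and 19.4 FPKM in the medial and 3.08, 0.669 and 2.72 FPKM in the lateral zone, and all ventricular libraries exceeded all medial ones. It was higher by 3.68 ± 0.44 in the ventricular than in the lateral zone (adjusted p = 0.00114) and by 2.57 ± 0.44 in the medial than in the lateral zone (adjusted p = 0.0115). Cks1b also passed (1.66 ± 0.42, adjusted p = 0.024), whereas Arpp19 and Ensa, inhibitors of the phosphatase PP2A-B55, had differences of -0.18 and -0.16 and did not.

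Further kinetochore genes were higher in 16 of 26 cases and lower in 1. Hjurp, the chaperone of Cenpa, was higher by 2.07 ± 0.31 in the ventricular than in the lateral zone (adjusted p = 0.00295). Zwint, a kinetochore protein, was the exception, at 80.5, 129 and 80.2 FPKM in the ventricular, 159, 155 and 199 FPKM in the medial and 227, 174 and 183 FPKM in the lateral mantle zone. All ventricular libraries lay below all others, and the difference from ventricular to lateral was -1.03 ± 0.21 (adjusted p = 0.0119). Ska2 and Cenpt did not pass, with differences of 1.09 (adjusted p = 0.0587) and -0.15.
Cohesin and condensin II genes were higher in 7 of 15 cases, among them Smc1a (0.86 ± 0.21, adjusted p = 0.0233) and Pds5a (1.0 ± 0.22, adjusted p = 0.014), while Rad21 (0.51) and Ncaph2 (0.50) did not pass. Subunits and partners of the anaphase-promoting complex moved least, with 6 of 20 higher. Cdc26 (0.73 ± 0.21, adjusted p = 0.0377) and Anapc1 (0.63 ± 0.19, adjusted p = 0.0414) passed, and Ube2s (0.21 ± 0.13, adjusted p = 0.297) and Anapc5 (-0.53 ± 0.17, adjusted p = 0.0517) did not. Ube2s, which extends the ubiquitin chains that Ube2c starts, held 161, 172 and 208 FPKM in the ventricular, 177, 184 and 185 FPKM in the medial and 151, 152 and 163 FPKM in the lateral zone.

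The library kit, NEBNext Ultra, does not mark strand, and 12 of the 42 members share exon sequence with another gene. Ccna2 overlaps Exosc9 (mean 13.4 FPKM over 9 libraries), Cdca8 overlaps 9930104L06Rik (9.21), Ncapg overlaps Lcorl (9.03), Prc1 overlaps Rccd1 (7.29), Cdc20 overlaps Elovl1 (5.70), Nusap1 overlaps Oip5 (3.91) and Cenpk overlaps Ppwd1 (3.34). Reads from such a pair cannot be told apart where the exons overlap.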

How the data were processed

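RNA from 3 zones of the E12.5 CD-1 mouse hypothalamus, 3 libraries each, was sequenced as 100 bp pairs, per the labels' protocols. The authors deposited an FPKM table with a column for each library. Alignment involved Bowtie2 2.1.0 and mm10, per the submitters' processing notes; how FPKM were computed is not given in the sources used. Of 38370 rows, 42 identical ones and 133 further rows of repeated symbols (the one with the highest mean was kept) were removed. None of these was a row of the 42 genes.

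Levels were analysed as log2(FPKM + 1), which understates changes of low genes. Genes that reached 1 FPKM in 3 or more libraries were fitted with limma 3.58.1 in R 4.3.3, with 1 mean per zone over all 9 libraries and an intensity trend. Two-sided p-values were adjusted over 14004 genes (Benjamini-Hochberg), with a threshold of 0.05. Depth was estimated from the steps between low FPKM values in genes with 1 annotated transcript, of which 65.4% to 69.2% lay within 0.1 of a whole step. It therefore gives relative depth, not counts. Implied fragments of a gene were computed with its longest annotated transcript and are approximate, since shorter transcripts would give fewer. A share is the mean FPKM of a zone over that of the ventricular zone. Promoter windows are the first RefSeq entry per symbol.

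The 42 genes, the 94 further genes, the marker lists and the tests were chosen with earlier results of these data known. The rule for naming took, per functional group, the gene of highest mean and those of largest and smallest difference between ventricular and lateral zone, genes that did not pass there, and the 5 highest and 5 lowest shares. From each further list it took up to 2 genes that passed and 2 that did not, by mean level. Alternatives changed the pseudocount, the filter, the scaling, the trend, the library weights, the zones fitted and the replicate block, and left out each library or both shallow ones.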

Additional observations from a re-analysis of the deposited data

How the results depend on the processing

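Depth limits the low genes: the median member rests on about 34.5 implied fragments in ventricular replicate 3, 38 in medial replicate 3 and 17.5 to 34.5 in the lateral libraries, and 12 members rest on under 10 in lateral replicate 2. With libraries weighted by noise (array weights), 22 mitosis genes passed between ventricular and medial zone and 17 between medial and flanking zones, against 0 in each as reported. The cause was not tested. With a pseudocount of 5, 22 in place of 34 passed between medial and lateral zone. Leaving out 1 library gave 36 to 41 between ventricular and lateral, 14 to 41 between medial and lateral, 0 to 1 between ventricular and medial and 0 to 1 between medial and flanking zones. Leaving out a lateral library also leaves that zone with 2 libraries. Of the 40 calls between ventricular and lateral zone 36 held in all 20 alternatives, and of the 34 between medial and lateral zone 14 did. The medial share of the summed level ranged from 46.5% to 88.3% and the lateral share from 7.62% to 13.9% when 1 library was left out. The lateral share was 13.9% without both shallow libraries and 5.40% as the median over members.

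Reversed directions touched only differences that did not pass. Between ventricular and medial zone, Pttg1 (0.02) became -0.19 without ventricular replicate 1, -0.15 without medial replicate 1 and -0.07 without medial replicate 2, with 0.27 as the highest value when 1 library was left out and 0.47 without both shallow ones. Without ventricular replicate 3, Cenpf became -0.21, Cenpk -0.43, Smc2 -0.22 and Ect2 -0.07, against highest values of 0.96, 0.52, 0.90 and 0.69 without another library. Cenpk was -0.05 with array weights, -0.03 without both shallow libraries and -0.24 without medial replicate 2. Espl1 between medial and flanking zones became -0.10 with a pseudocount of 5, -0.04 without ventricular replicate 2 and -0.02 without medial replicate 2, and at most 0.26 without 1 library.

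Over all genes, 2750 passed between ventricular and lateral zone, 6800 with array weights, 1684 with only these zones fitted and 959 to 3958 without 1 library. Between ventricular and medial zone none passed (1661 at an unadjusted limma p under 0.05), but 5 with a pseudocount of 5, 4 with a filter at 5 FPKM, 9 with quantile scaling, 2761 with array weights and 0 to 571 without 1 library. Between medial and lateral zone 577 passed, 3700 with array weights, 2027 with only these zones fitted, 1666 without both shallow libraries and 207 to 1760 without 1 library. Against the flanking zones 6 passed, 1 with a pseudocount of 0.1, 0 without a filter, 3 with trimmed mean scaling, 560 with array weights, 12 without both shallow libraries and 0 to 32 without 1 library. Between medial and lateral zone the share of calls that were higher medially was 86.8%, and 66.6% with quantile scaling, under which the median of all genes was -0.01, against 0.10 as reported. The median of all genes was -0.02 with trimmed mean scaling. All 42 members stayed higher medially under both scalings.

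With a replicate block in the fit, 40 members passed between ventricular and lateral, 0 between ventricular and medial (16 at an unadjusted p under 0.05), 38 between medial and lateral and 0 between medial and flanking zones. Deviations of same-numbered libraries correlated at -0.098 to 0.249, positively in 8 of 9 pairs and over 0.1 in 4, and not every library correlated best with its own number. Differently numbered libraries of other zones correlated at -0.247 to 0.231, most of them negatively. Deviations from a zone mean cancel out within the zone, so these signs are tied to the same-numbered ones and add no separate evidence. The numbers were not used as a pairing in the main fit because whether they mark a shared embryo or day is not stated.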
